A study of Mus musculus with 20 samples.

Results

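The insulin signalling genes described here are 10 genes chosen by name: the receptor Insr, the adaptors Irs1 and Irs2, the phosphoinositide 3-kinase (PI3K) subunits Pik3r1 and Pik3ca, the kinases Akt1 and Akt2, the transcription factors Foxo1 and Foxo3, and the Rab GTPase-activating protein Tbc1d4. All 10 were among the 48967 genes with counts in the files and among the 18035 genes that passed the filter on low counts. They were measured by RNA sequencing in 20 heart samples of wild-type C57BL/6 mice aged 12 weeks, with no other allele or agent named. The groups were PA females, chow females, PA males and chow males, with 5 libraries each. The titles call the diets PA and Chow, and the design text names a chow and a high-fat diet, so PA is read here as the high-fat diet; its make-up and its length are not given in the sources used here. The fourth chow male library was counted per gene while the other 19 were counted per exon piece, so it was left out and the chow males had 4 libraries. The labels do not say whether the libraries of a group came from separate mice, so p-values measure the spread between these libraries, which may be technical.

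Insulin binds its receptor at the cell surface, and the activated receptor kinase phosphorylates the IRS adaptors. These recruit PI3K, whose lipid product draws AKT kinases to the membrane, where they are switched on. Active AKT phosphorylates FOXO transcription factors, which then leave the nucleus, and the protein of Tbc1d4, which then stops holding back the glucose transporter GLUT4, so that heart muscle takes up more glucose.

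Across the 10 genes, the differences that passed the test with all 19 libraries were both in Akt1: it was lower in PA males than in chow males, at 0.79 times the chow level, and higher in PA females than in PA males. Akt1 was the 1 member of 10 called for diet in males, against 0.765% of all genes tested; a gene is called where the adjusted p, over all genes, is under 0.05 by edgeR. In females 0 of 10 members were called for diet, against 2.53% of all genes, and DESeq2 also called 0. At an unadjusted p under 0.05 by edgeR, 3 members passed for diet in females, against 18.79% of all genes, and 3 in males, against 8.528%. For the difference between the diet effects of the sexes, edgeR called 0 of 10 members and 0% of all genes, and DESeq2 called 58 genes but 0 members. There, 1 member had an unadjusted p under 0.05 by edgeR, against 10.17% of all genes. In the members' levels between females and males on the PA diet, 1 of 10 members was called, again Akt1, against 10.4% of all genes, so the members' share was near the background. At an unadjusted p under 0.05 by edgeR, 6 members passed on PA, against 29.75% of all genes. On chow, 0 of 10 members differed by sex, against 3.23% of all genes, and DESeq2 called 0. At an unadjusted p under 0.05 by edgeR, 0 members passed on chow, against 16.66% of all genes. The members' median log2 difference between PA and chow was -0.114 in females, beside -0.018 over all genes tested, and 0.035 in males, beside 0.002.

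The 19 libraries held 57805110 to 85794067 counts. Cardiomyocyte markers were high in all 19, with Myh6, the main cardiac myosin of the adult mouse, at 35400 to 44370 CPM, which are counts scaled by library size, while the 6 markers of white fat cells were each at 1.09 CPM or less in every library. Of the markers listed for brown fat cells, Ucp1 had 0 counts in 16 libraries, and Cidea was at 17.5 to 34.3 CPM. PA females 4 and 5 stood apart: per 10 percentage points of a gene's GC content, their log2 counts rose by 0.595 and 0.857, whereas the slope in the other 17 ran from -0.065 to 0.136, and the nuclear RNA Malat1 was at 117 and 63.8 CPM, against 1130 to 1530 CPM elsewhere. Most log2 differences of single genes that rest on PA females are therefore given with and without these 2 libraries. Without them, 0 of 10 members and 4.97% of all genes were called for diet in females, 2 of 10 members and 2.6% of genes for diet in males, 0 of 10 and 0% for the difference of the diet effects, 2 of 10 and 10.4% for sex on PA, and 0 of 10 and 10.5% for sex on chow. In whole hearts, fewer cells of a type and less RNA per cell cannot be told apart.

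**Figure D1:**
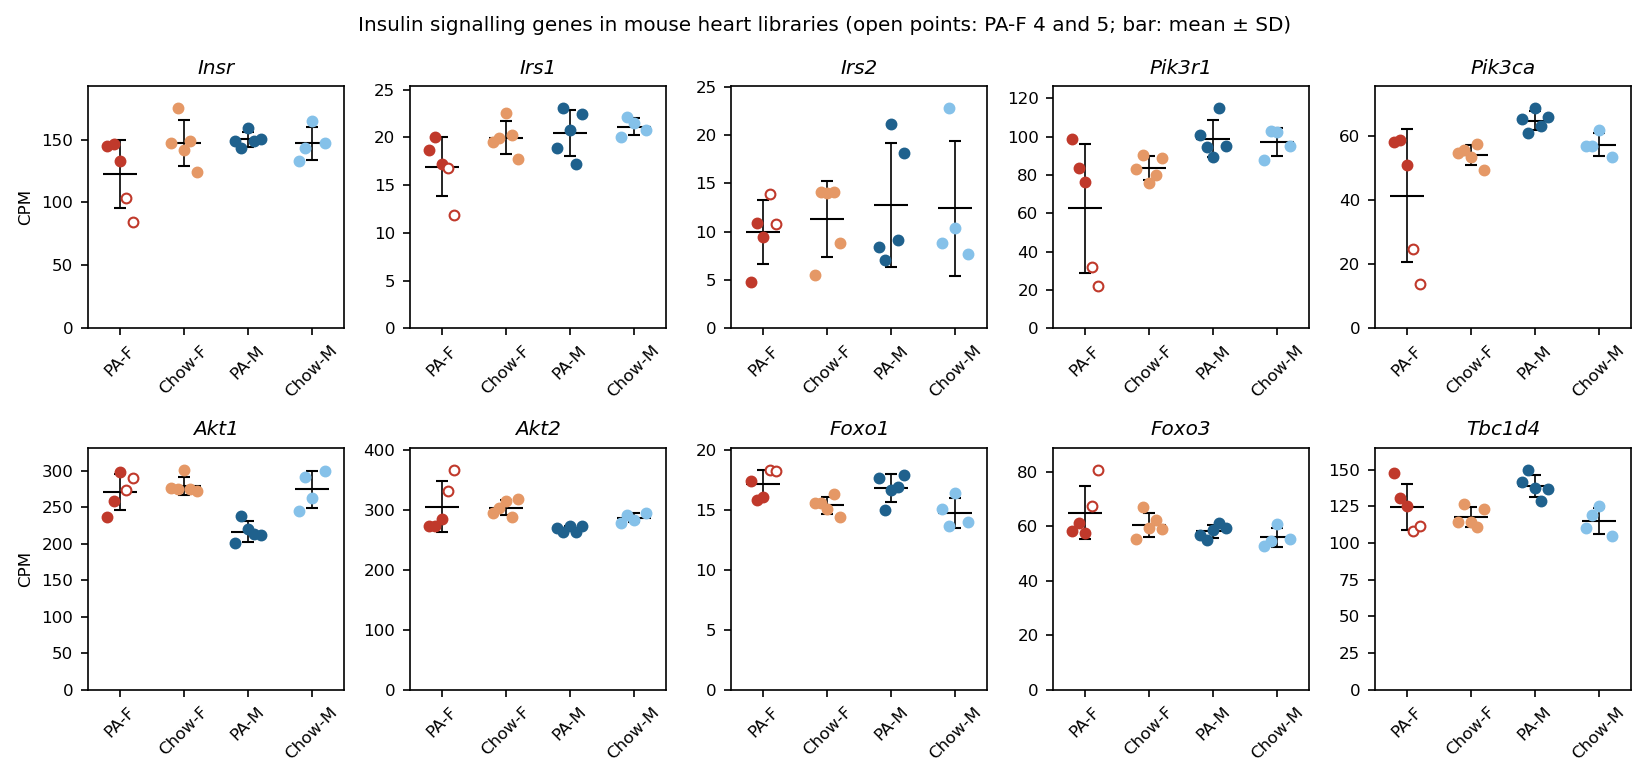
Level of each insulin signalling gene in CPM (linear axis from 0) in every compared library, by group; each point is 1 library, open points are PA females 4 and 5, and the bar with whiskers is the mean ± SD. Akt1 lies between 200.9 and 238.2 CPM in PA males and between 244.5 and 299.0 CPM in chow males, and the open points of Pik3r1 and Pik3ca fall far below every other library.

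Per length, the members spanned a wide range of levels in these hearts. Akt1 led with 63.4 ± 8.4 CPM per kilobase (SD, n = 19 libraries) and Akt2 followed with 40.9 ± 3.9. Tbc1d4 had 16.2 ± 1.8, Insr 10.3 ± 1.5, Pik3r1 8.42 ± 2.21, Foxo3 7.95 ± 0.89 and Pik3ca 5.97 ± 1.46 CPM per kilobase. The lowest levels were those of Irs1 at 2.14 ± 0.28, Foxo1 at 1.86 ± 0.17 and Irs2 at 1.83 ± 0.77 CPM per kilobase. Akt1, Akt2 and Tbc1d4 lay apart from each other and from the rest beyond their SDs, while from Insr down to Pik3ca each gene overlapped its neighbour within their SDs, as did the lowest 3 genes. A read over several exon pieces is counted in each, so these levels depend on the way of counting. In the chow male library counted per gene, Akt1 had 46.0, Akt2 26.7, Insr 13.1, Pik3r1 10.7, Irs2 7.27 and Irs1 1.87 CPM per kilobase, so that Akt1 and Akt2 led there too.

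Insr encodes the receptor itself, a transmembrane tyrosine kinase. Its level was 145, 147, 133, 104 and 84.8 CPM in the 5 PA females, against 147, 175, 142, 149 and 124 CPM in the chow females. PA females 4 and 5 were the lowest of the 10 and the other 3 PA females lay inside the chow range, so the groups overlapped. The log2 difference was -0.26 ± 0.12 (SE; unadjusted p = 0.0454, adjusted p = 0.255 by edgeR) and -0.06 ± 0.08 without these 2 libraries. In males Insr averaged 150.2 ± 5.7 CPM on PA and 147 ± 13 CPM on chow (SD, n = 5 and 4), a log2 difference of 0.03 with a 95% interval of -0.24 to 0.31.

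The receptor transcript has a 36-base alternative exon whose inclusion gives receptor form B and whose omission gives form A; form A also binds IGF2 well. It lies on the minus strand at chr8:3181702-3181737 (GRCm38) and is shown because it was the receptor's one exon examined by itself; capitals mark it, between 12 bases of the exons before and after.
Insr 36-base exon: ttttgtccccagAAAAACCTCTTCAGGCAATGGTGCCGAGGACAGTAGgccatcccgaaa

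This exon received 429 counts over the 19 libraries, and the pieces flanking it 3622 and 4527. As a percentage of the mean of both flanks it stood at 11.1, 7.87, 11.3, 7.48 and 11.4% in the PA females, against 15.4, 10.4, 11.5, 20.4 and 12.0% in the chow females. The groups overlapped. In the males it stood at 10.2, 12.0, 9.09, 8.26 and 8.02% on PA, against 5.33, 11.4, 10.2 and 7.71% on chow, again with overlap. A short piece collects fewer reads than its long neighbours and the read length is not given, so these percentages are no inclusion rates. The 10 to 38 counts per library limit how precise each percentage is.

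Irs1 and Irs2 encode the adaptors that carry the signal from the receptor to PI3K. Irs1 had 18.7, 20.02, 17.2, 16.8 and 11.8 CPM in the PA females and 19.5, 19.9, 22.6, 20.2 and 17.7 CPM in the chow females. PA female 5 was the lowest of the 10, and the groups overlapped. Irs1 differed by -0.24 ± 0.11 log2 units (unadjusted p = 0.0472, adjusted p = 0.26 by edgeR), and -0.10 ± 0.09 without PA females 4 and 5. In males Irs1 averaged 20.4 ± 2.5 CPM on PA and 21.1 ± 0.9 CPM on chow.

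Irs2 varied widely between libraries of the same group, with a coefficient of variation of 33.5% in PA females, 35.0% in chow females, 50.2% in PA males and 56.3% in chow males. That was the highest of the 10 members in each group except PA females, where Pik3r1 had 53.7% and Pik3ca 50.1%. It had 8.38, 7.05, 21.2, 9.11 and 18.1 CPM in the PA males and 8.87, 22.8, 10.4 and 7.65 CPM in the chow males. In both groups most libraries lay near the low end, with PA males 3 and 5 and chow male 2 well above them. The log2 difference for diet was -0.18 ± 0.37 in females, and -0.43 ± 0.41 without PA females 4 and 5. In males it was 0.04 ± 0.40, and its 95% interval in males, -0.79 to 0.87, leaves room for large changes either way. The ratio of Irs2 to Irs1 counts within a library ran from 0.253 in PA female 1 to 1.03 in chow male 2, with a median of 0.547.

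PI3K is a pair of proteins: Pik3r1 encodes the regulatory subunit p85-alpha, which docks onto IRS proteins, and Pik3ca the catalytic subunit p110-alpha. Pik3r1 had 98.9, 83.8, 76.2, 32.1 and 22.1 CPM in the PA females and 83.1, 90.4, 76.0, 79.9 and 88.9 CPM in the chow females. PA females 4 and 5 lay far below all others, and the first 3 lay around the chow range. Pik3ca had 58.3, 59.0, 51.0, 24.8 and 13.8 CPM in the PA females and 54.7, 55.7, 53.5, 57.6 and 49.4 CPM in the chow females, with the same 2 libraries low.

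The log2 difference for diet in females was -0.42 ± 0.28 for Pik3r1 and -0.39 ± 0.26 for Pik3ca, neither called by edgeR. Without PA females 4 and 5 both turned sign, to 0.04 ± 0.09 and 0.05 ± 0.06. These 2 genes had the lowest GC content of the members, 44.9% for Pik3r1 and 41.2% for Pik3ca. Against the chow female mean, Pik3ca stood at -1.12 and -1.97 log2 units in PA females 4 and 5, and Pik3r1 at -1.38 and -1.92. The other members follow in order of GC content, with their values in PA females 4 and 5. Insr (46.8%) stood at -0.495 and -0.787, Foxo1 (48.5%) at 0.25 in both, and Tbc1d4 (49.9%) at -0.12 and -0.08. Irs1 (50.3%) stood at -0.25 and -0.75, Foxo3 (53.2%) at 0.16 and 0.42, and Akt2 (55.2%) at 0.13 and 0.275. Irs2 (56.6%) stood at 0.38 and 0.02, and Akt1, with the highest at 59.7%, at -0.03 and 0.05. The part of GC content in these deviations was not tested. With an offset for GC content in each library, the diet difference in females was -0.39 for Pik3r1 and -0.23 for Pik3ca.

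**Figure D2:**
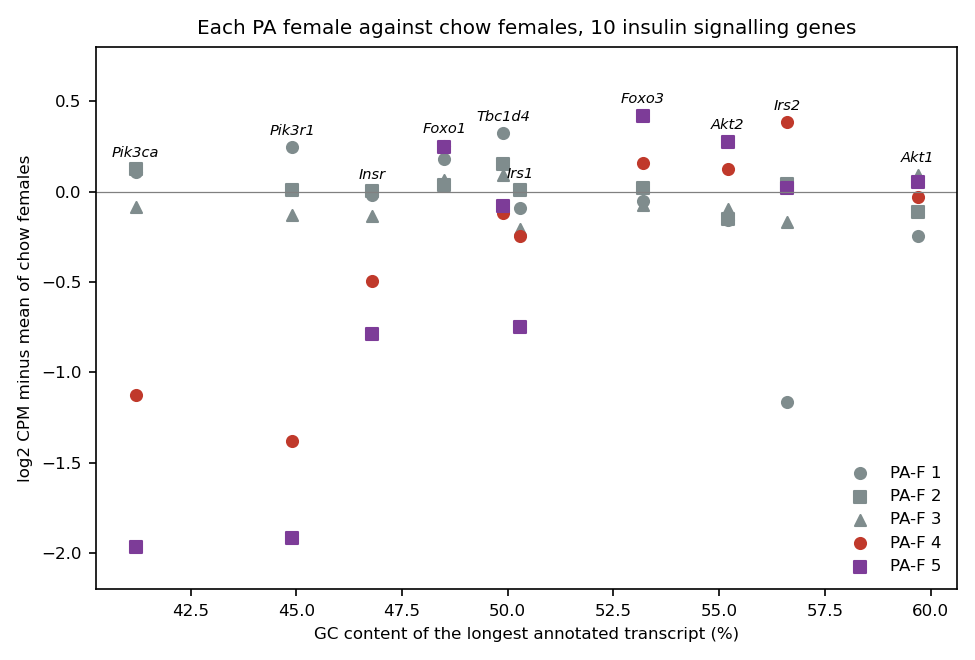
Level of each of the 10 genes in each PA female, as log2 CPM minus the mean of the 5 chow females, against the GC content of the gene's longest annotated transcript in percent; each point is 1 gene in 1 library. In PA females 4 and 5 the genes of low GC content, Pik3ca and Pik3r1, sit between -1.12 and -1.97, while PA females 1 to 3 stay near 0 apart from Irs2 in PA female 1.

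In males, Pik3ca had 65.3, 61.2, 68.8, 63.2 and 66.0 CPM on PA and 56.9, 57.1, 62.0 and 53.5 CPM on chow. Only PA male 2 fell below the highest chow male. All 23 of its exon pieces with a mean of at least 50 counts were higher in PA males, although pieces share reads and are no replicates. The log2 difference was 0.18 ± 0.28 in the fit of all libraries and 0.18 ± 0.06 without PA females 4 and 5. The adjusted p was 0.999 and 0.094 by edgeR, so Pik3ca was not called in either. Pik3r1 averaged 99.1 ± 9.8 CPM in PA males and 97.2 ± 7.2 CPM in chow males.

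Pik3r1 also makes shorter regulatory subunits from other first exons. Exon 2 of the long transcript held 7496 counts over the 19 libraries, against 258 and 27 for the first exons of 2 shorter GENCODE transcripts, so the long form's exon held most of these counts in every group. The counts were not scaled for exon length, so they do not measure the proportions of the subunits.

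Akt1 and Akt2 encode AKT kinases; Akt2 is the form best known for insulin's effect on glucose uptake, and Akt1 for growth and survival. Akt1 had 200.9, 238, 220.0, 213 and 211 CPM in the PA males and 245, 292, 262 and 299 CPM in the chow males. All 5 PA males lay below all 4 chow males. The log2 difference was -0.34 ± 0.07 (SE, adjusted p = 0.0315, quasi-likelihood test of edgeR), or 0.79 times the chow level.

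The fall ran along the whole gene. Of 25 Akt1 exon pieces with a mean of at least 50 counts, 25 were lower in PA males, by log2 ratios of -0.41 to -0.16 with a median of -0.34. In 16 of them all PA males lay below all chow males, and the share of all pieces that do so was not computed. Pieces share reads and sum to the gene's count, so they are no replicates and add no support to the call. Non-overlapping groups were found for 3 of the 10 members in males, Akt1, Akt2 and Tbc1d4, against 7.6% of all genes, and for 0 of 10 in females, against 4.53%. The Akt1 call rested on single libraries: the adjusted p was 0.148, 0.0546 and 0.141 without chow male 2, 3 or 5, and 0.0862, 0.0689, 0.0771 and 0.0815 without PA male 1, 3, 4 or 5, with log2 differences of -0.39 to -0.30 over all libraries left out in turn. Summed cardiomyocyte markers were at 77490 to 83180 CPM in PA males and 86080 to 92930 CPM in chow males, with 0 of 6 called, and their part in the Akt1 difference was not tested.

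Akt1 has several annotated first exons. The first exon of the longest GENCODE transcript held 7853 counts over the 19 libraries, 1660 of them in the 5 PA males and 1829 in the 4 chow males. That of a transcript starting upstream held 12, with 0 in PA males and 5 in chow males. The first exon of another transcript held 62, with 15 in PA males and 24 in chow males. The RefSeq promoter windows at the start of the longest transcript and at the upstream start follow (GRCm38.p6, minus strand, 300 bases around the start). They are shown because nearly all first-exon counts fall at one of them. The window of the used start lies at chr12:112674227-112674526 and is 79.7% G or C, and the upstream window lies at chr12:112674835-112675134 and is 52.3% G or C.
Akt1 window at the used start: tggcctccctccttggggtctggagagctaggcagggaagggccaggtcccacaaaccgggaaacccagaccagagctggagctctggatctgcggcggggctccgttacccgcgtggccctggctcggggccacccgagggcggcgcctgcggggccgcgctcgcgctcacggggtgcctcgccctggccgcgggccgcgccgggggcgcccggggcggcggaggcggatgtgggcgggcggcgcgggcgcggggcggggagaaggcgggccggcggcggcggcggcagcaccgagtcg
Akt1 window at the upstream start: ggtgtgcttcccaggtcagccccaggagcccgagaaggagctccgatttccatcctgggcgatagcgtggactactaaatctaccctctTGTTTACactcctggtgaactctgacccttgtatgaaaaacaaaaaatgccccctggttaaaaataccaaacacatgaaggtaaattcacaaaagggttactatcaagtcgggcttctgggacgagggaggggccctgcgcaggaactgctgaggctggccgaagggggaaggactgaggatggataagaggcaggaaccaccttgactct

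Both strands of the windows were searched for the FOXO motif GTAAACA and for the E-box CACGTG; capitals mark a match, here TGTTTAC, the FOXO motif on the other strand. Windows were found for 9 members, 14 windows in all, and none for Insr. The FOXO motif occurred in 1 of the 14, the Akt1 window at the start with 12 counts, and in 3.65% of all windows. The E-box occurred in 2 of the 14, in Irs1 and Irs2, and in 7.15% of all windows. A match in these letters does not show that a factor binds.

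In females Akt1 had 236, 259, 298, 274 and 290 CPM on PA and 276, 274, 302, 274 and 272 CPM on chow. The groups overlapped, with PA females 1 and 2 the lowest. The log2 difference was -0.04 with a 95% interval of -0.19 to 0.10, and -0.09 ± 0.07 without PA females 4 and 5. With an offset for GC content in each library it was -0.19 ± 0.06 and not called (unadjusted p = 0.00604, adjusted p = 0.107 by edgeR). The effect in females minus that in males was 0.30 ± 0.10 (unadjusted p = 0.00795, adjusted p = 0.355 by edgeR). It was 0.25 ± 0.10 without PA females 4 and 5 (adjusted p = 0.354) and 0.11 ± 0.09 with the GC offset (adjusted p = 0.718). A difference between the sexes in the diet effect thus did not pass the test.

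**Figure D3:**
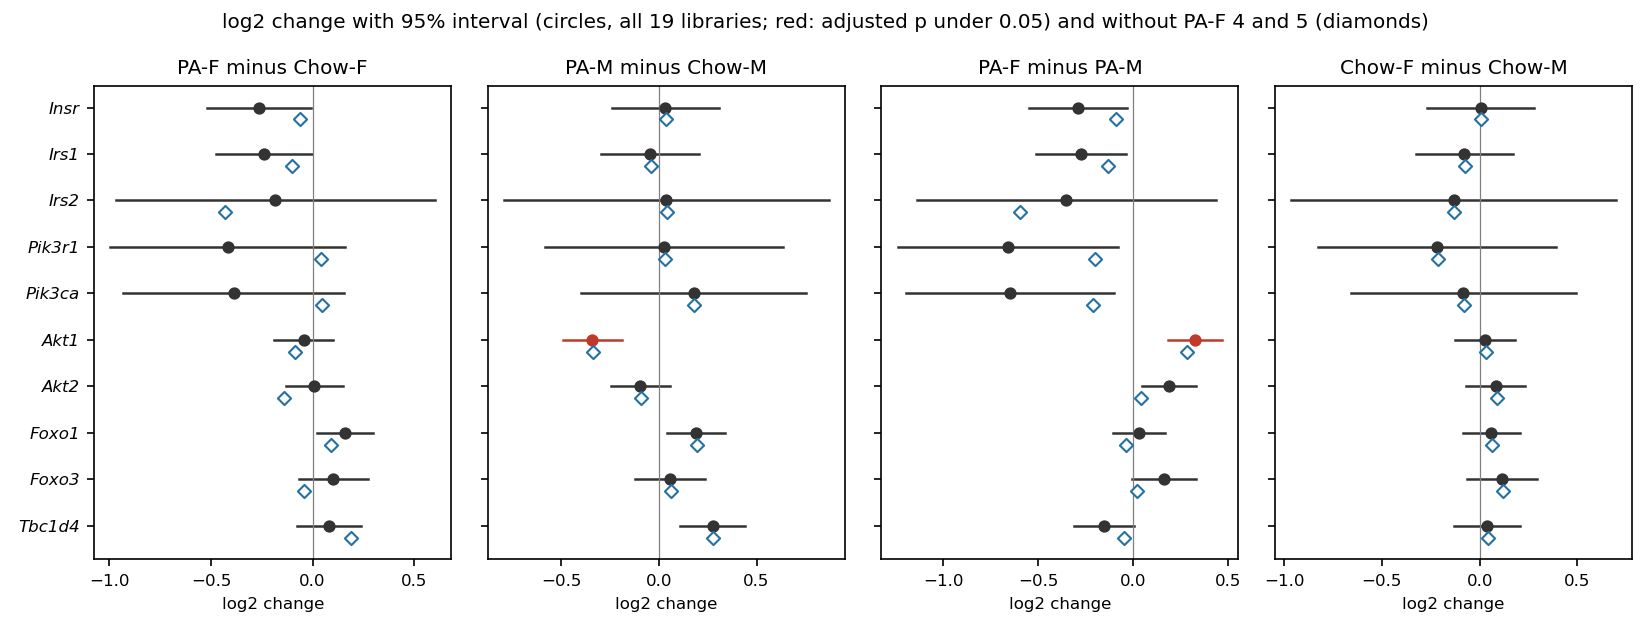
The log2 difference of each member in 4 comparisons, PA minus chow in each sex and female minus male on each diet; circles with lines are estimates from all 19 libraries with 95% intervals, red where the adjusted p is under 0.05, and diamonds are estimates without PA females 4 and 5. Akt1 is red at -0.34 for diet in males and at 0.32 for sex on PA, and the diamonds of Pik3r1 and Pik3ca for diet in females lie close to 0.

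On the PA diet, Akt1 was higher in females than in males by 0.32 ± 0.07 log2 units (adjusted p = 0.00695 by edgeR), with the values given above. Of the PA females, 4 lay above all PA males and PA female 1, at 236.0 CPM, lay below PA male 2 at 238.2 CPM. Without PA females 4 and 5 the difference was 0.28 ± 0.07 (adjusted p = 0.019 by edgeR). With an offset for GC content in each library it was 0.12 and not called (adjusted p = 0.22 by edgeR); Akt1 had the highest GC content of the members, 59.7%. On chow, Akt1 averaged 279.6 ± 12.3 CPM in females and 274 ± 26 CPM in males (SD, n = 5 and 4), a log2 difference of 0.03 ± 0.07. Summed fibroblast markers were at 1133 to 1416 CPM in PA females and 976 to 1078 CPM in PA males, with 3 of 5 called higher in females; their part in the Akt1 difference was not tested.

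Akt1 was compared over the 17 libraries without PA females 4 and 5 with genes of mean CPM at least 1. Genes with provisional symbols, such as those of the Gm and Rik kinds, were left out. Among the rest, log2 CPM followed Akt1 most closely in Dmwd (r = 0.92), Fasn (r = 0.90) and Hk1 (r = 0.90). Fasn encodes fatty acid synthase and Hk1 a hexokinase. The 17 libraries share their groups, and the correlations describe likeness of pattern.

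Akt2 had 270, 264, 274, 264 and 273 CPM in the PA males and 277, 292, 284 and 294.5 CPM in the chow males. The groups did not overlap, but the gap was small: the log2 difference was -0.09 ± 0.07 (adjusted p = 0.872 by edgeR). In females Akt2 had 272, 273, 284, 331 and 367 CPM on PA and 294, 303, 315, 289 and 317 CPM on chow. PA females 4 and 5 were the highest of the 10 and the other 3 the lowest. The difference was 0.01 ± 0.07 with all libraries, turned to -0.14 ± 0.04 without PA females 4 and 5 (adjusted p = 0.0542), and was -0.14 with the GC offset, where it was called (adjusted p = 0.0185, edgeR).

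Foxo1 and Foxo3 encode transcription factors that AKT keeps out of the nucleus. Foxo1 had 17.4, 15.8, 16.04, 18.3 and 18.2 CPM in the PA females and 15.6, 15.6, 15.1, 16.3 and 14.4 CPM in the chow females. In males it had 17.6, 15.0, 16.6, 16.9 and 17.9 CPM on PA and 15.0, 13.6, 16.4 and 14.0 CPM on chow. In each sex most PA libraries lay above the chow range and the groups overlapped; PA females 4 and 5 were 2 of the 3 PA females above it. The log2 differences were 0.16 ± 0.07 in females and 0.19 ± 0.07 in males, with adjusted p of 0.204 and 0.369 by edgeR, so neither was called. The female difference without PA females 4 and 5 was 0.09 ± 0.07 (adjusted p = 0.504). Foxo3 averaged 65.0 ± 9.7 CPM in PA females and 60.5 ± 4.4 CPM in chow females, and 58.2 ± 2.3 CPM in PA males and 55.9 ± 3.4 CPM in chow males. Its log2 difference was 0.10 in females, -0.04 without PA females 4 and 5, and 0.06 in males.

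Tbc1d4, also called AS160, is the AKT substrate that links the pathway to GLUT4. It had 142, 150.2, 138, 129 and 137 CPM in the PA males and 111, 119, 125 and 105 CPM in the chow males. All 5 PA males lay above all 4 chow males. Between the diets it differed by 0.27 ± 0.08 log2 units (unadjusted p = 0.00303, adjusted p = 0.174 by edgeR), and 0.28 ± 0.06 without PA females 4 and 5, where it was called (adjusted p = 0.0123), as it was in a fit of the male libraries alone (adjusted p = 0.0129). Of 29 exon pieces with a mean of at least 50 counts, 29 were higher in PA males, with a median log2 ratio of 0.28. Here too the pieces share reads and add no support to the gene's difference.

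In females Tbc1d4 had 148, 131, 126, 108 and 111 CPM on PA and 115, 127, 114, 111 and 124 CPM on chow. PA females 1 and 2 were the highest, PA female 4 was the lowest, and the groups overlapped. PA and chow females differed by 0.08 ± 0.08 log2 units (adjusted p = 0.56 by edgeR), and 0.19 ± 0.06 without PA females 4 and 5 (adjusted p = 0.0931). The difference between the sexes in the diet effect was -0.19 ± 0.11 (adjusted p = 0.558), and -0.09 ± 0.09 without these 2 libraries (adjusted p = 0.738), so the effects were not shown to differ. Along the gene, the female difference was uneven: the 14 pieces nearer the 5' end had a median log2 ratio of 0.25 and the 15 nearer the 3' end 0.02, against 0.25 and 0.28 in males. Without PA females 4 and 5 the female medians were 0.33 and 0.17.

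**Figure D4:**
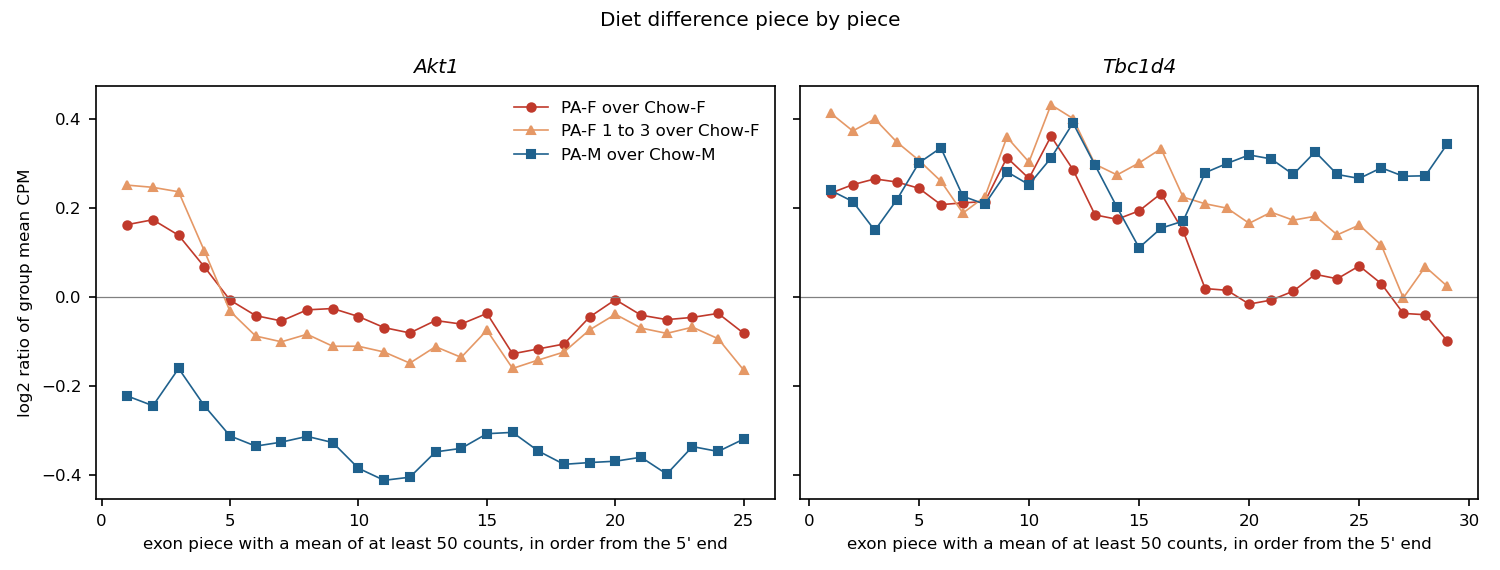
The log2 ratio of group mean CPM, PA over chow, for each exon piece with a mean of at least 50 counts, in order from the 5' end of Akt1 and of Tbc1d4; red circles are all PA females, orange triangles PA females 1 to 3, each over the chow females, and blue squares males. In males all 25 Akt1 pieces lie below 0 and all 29 Tbc1d4 pieces above 0, while the red female line of Tbc1d4 drops from near the male line toward 0 along the gene; pieces share reads and are no replicates.

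Tbc1d4 has 2 neighbouring alternative exons that mark the long form known from muscle. They are shown because they were the exons of this gene examined by themselves. Capitals mark the exon, between 12 bases of its neighbours, on the minus strand of GRCm38. The 165-base exon lies at chr14:101475077-101475241 and the 24-base exon at chr14:101471428-101471451.
Tbc1d4 165-base exon: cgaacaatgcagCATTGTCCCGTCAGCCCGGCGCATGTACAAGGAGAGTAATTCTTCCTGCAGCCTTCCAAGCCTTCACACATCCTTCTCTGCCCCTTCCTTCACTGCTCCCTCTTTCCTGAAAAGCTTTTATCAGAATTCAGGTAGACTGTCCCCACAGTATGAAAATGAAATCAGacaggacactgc
Tbc1d4 24-base exon: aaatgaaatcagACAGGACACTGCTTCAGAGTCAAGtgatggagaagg

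The 165-base exon received 76.6 ± 6.0% of the mean count of the pieces flanking the pair in PA females and 74.7 ± 5.9% in chow females, and 75.0 ± 8.0% in PA males and 77.7 ± 4.8% in chow males (SD, n = 5, 5, 5 and 4). All 19 libraries lay between 64.0 and 86.4%. The 24-base exon received 2.26 ± 2.66% in PA females, 2.62 ± 0.64% in chow females, 2.88 ± 1.43% in PA males and 2.13 ± 0.49% in chow males, from 0 to 16 counts per library. The long exon thus had somewhat fewer counts than its neighbours in every group, and the short exon collected few reads. A short piece collects fewer reads than long ones, so these percentages too are no inclusion rates. They do not show which form these hearts hold.

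**Figure D5:**
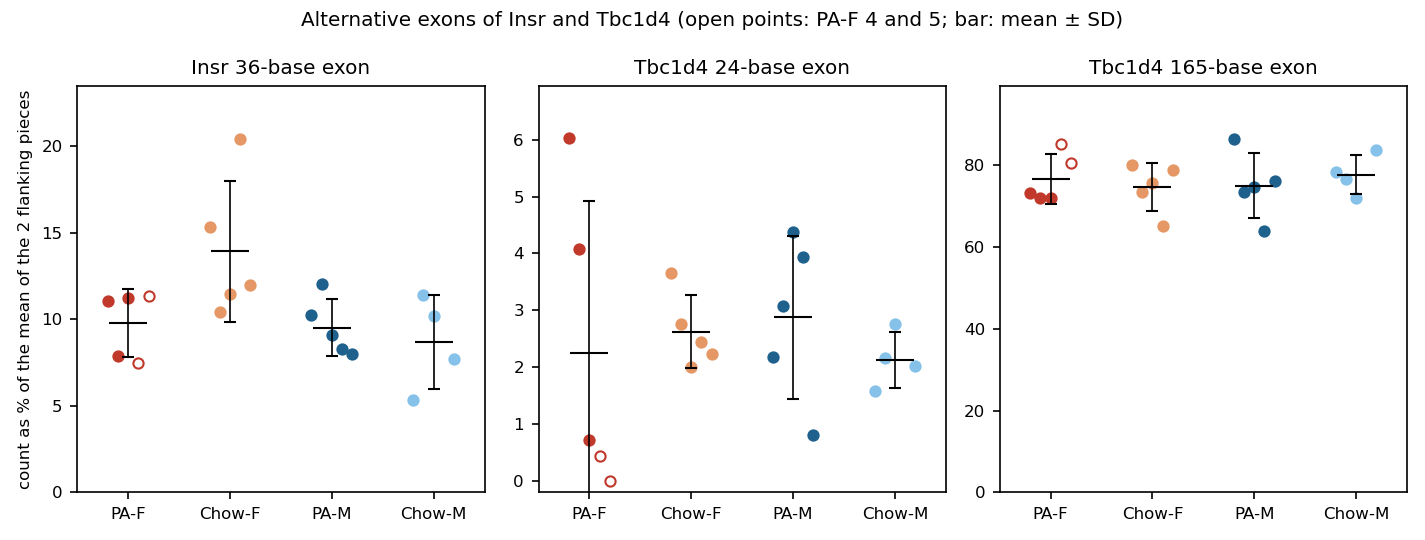
Counts of the alternative exons of Insr and Tbc1d4 as a percentage of the mean count of the pieces flanking them, by group; points are libraries, open points PA females 4 and 5, and bars with whiskers the mean ± SD. The Tbc1d4 165-base exon lies between 64.0 and 86.4% in all 19 libraries, and the Insr exon between 5.33 and 20.4%.

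Over all members, 191 exon pieces were tested for a change in their share of the gene, and edgeR called 0 of them in each of the 5 comparisons. Of all 204507 pieces tested, 0.0191% were called between PA and chow females, 0% between PA and chow males, and 0.000978% for the difference between the sexes in the diet effect. Between females and males, 0.0274% were called on chow and 0.0191% on PA. At an unadjusted p under 0.05, 2 of the 191 pieces passed for diet in females and 0 in the other 4 comparisons. A share of 0.05 would pass by chance where nothing changes, so this test was strict here. Its 0 calls therefore do not show that the pieces' shares stayed the same. Without PA females 4 and 5, 11 pieces passed at that level for diet in females and 0 to 2 in the other 4 comparisons. DESeq2 was not run on pieces.

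Between the sexes on the PA diet, Pik3ca had all 5 females below all 5 males with the values given above, the 1 member of 10 whose groups did not overlap, against 10% of all genes. Its log2 difference was -0.65 ± 0.26 (adjusted p = 0.112 by edgeR) with all libraries and -0.21 ± 0.06 without PA females 4 and 5, where it was called (adjusted p = 0.0295). Pik3r1 differed by -0.66 ± 0.28 (adjusted p = 0.124), and by -0.20 ± 0.09 without these 2 libraries (adjusted p = 0.135). On chow, Pik3r1 averaged 83.7 ± 6.0 CPM in females and 97.2 ± 7.2 CPM in males, a log2 difference of -0.22 that was called in a fit of the chow libraries alone (adjusted p = 0.046) and not in the fit of all 4 groups (adjusted p = 0.819). On chow, 0 of 10 members had groups without overlap, against 11.7% of all genes.

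Beyond the 10 members, 109 genes of the pathway were listed by role and 107 passed the filter on low counts. The insulin genes Ins1 and Ins2 did not. For diet, 2 of the 107 were called in both sexes, Slc2a4, which encodes GLUT4 itself, and Pdk4, a kinase that restrains pyruvate dehydrogenase. Of all genes tested, 2.53% were called in females and 0.765% in males, and the share called in both was not computed. Pdk4 averaged 864 ± 176 CPM in PA females and 317 ± 81 CPM in chow females, and rose by 1.45 ± 0.17 on the log2 scale, or 1.44 without PA females 4 and 5 (adjusted p = 0.000398 and 0.000142 by edgeR). It averaged 1496 ± 200 CPM in PA males and 268 ± 43 CPM in chow males, and rose by 2.48 ± 0.19 on the log2 scale (adjusted p = 1.18e-06). Slc2a4 averaged 351 ± 49 CPM in PA females and 429 ± 6 CPM in chow females, and fell by 0.29 on the log2 scale (adjusted p = 0.0311 by edgeR), or by 0.44 without PA females 4 and 5 (adjusted p = 1.69e-05). It averaged 310.3 ± 13.1 CPM in PA males and 396 ± 11 CPM in chow males, and fell by 0.35 on the log2 scale (adjusted p = 0.0268).

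Slc2a4 was the 1 of 13 genes of GLUT4 traffic and glycogen called for diet in each sex, against 2.53% of all genes in females and 0.765% in males. In the list of other FOXO genes and known FOXO targets, 3 of 21 rose in females and 0 fell, against 2.53% of all genes called: Pdk4, Cat, which encodes catalase, and Foxo4. In males 2 of 21 rose and 0 fell, against 0.765% of all genes: Pdk4 and Ccng2, a cyclin. Without PA females 4 and 5 the counts were 2 in females and 6 in males, with 0 lower in both, against 4.97% and 2.6% of all genes. Foxo4 was then not called in females (0.13, adjusted p = 0.144), and Cat, Gabarapl1, Gadd45a and Foxo4 joined in males. Cat rose by 0.38 ± 0.07 log2 units in females (adjusted p = 0.00917 by edgeR) and by 0.26 without these 2 libraries (adjusted p = 0.0164), and Ccng2 by 0.35 ± 0.07 in males (adjusted p = 0.0265). Several of these genes answer to other factors as well, Pdk4 to fatty acid receptors among them. The list's median log2 difference was 0.01 in females and 0.20 in males, beside -0.018 and 0.002 over all genes tested.

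In the remaining lists few genes were called for diet. Of 13 genes of the RAS and MAPK arm, 1 rose in females, against 2.53% of all genes called, and 0 were called in males, against 0.765%. The 1 was the kinase gene Mapk3 (log2 0.27 ± 0.06, adjusted p = 0.0284 by edgeR), which missed the threshold without PA females 4 and 5 (0.19, adjusted p = 0.0711). For diet in either sex, edgeR called 0 of 8 tested ligand and IGF genes, 9 adaptors and 8 lipid and AKT phosphatases. It also called 0 of 14 receptor-level inhibitors and 14 genes of the mTOR arm. At an unadjusted p under 0.05 by edgeR, each of these lists held 3 or 4 genes in females and 0 to 2 in males. Over all genes tested, 18.79% passed at that level in females and 8.528% in males. Without PA females 4 and 5, edgeR called 4.97% of all genes for diet in females and 2.6% in males. In that fit it called 2 of the 8 ligand and IGF genes in females. These were the growth factor gene Igf1, higher by 0.44, and Igfbp3, which encodes an IGF-binding protein, lower by -0.485 log2 units (adjusted p = 0.00906 and 0.0344). It also called Phlpp2, an AKT phosphatase gene, higher in females (0.35, adjusted p = 0.04) and Gys1, glycogen synthase of muscle, lower in males (-0.20, adjusted p = 0.0274). In the same fit it called Deptor, an mTOR inhibitor, higher in both sexes (log2 0.31 and 0.29 in females and males, adjusted p = 0.0192 and 0.0241), and Pik3ip1 and Trib3, inhibitors of PI3K and of AKT, higher in males (0.43 and 0.56, adjusted p = 0.0126 and 0.0252).

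Between the sexes on PA, where 10.4% of all genes were called, some genes of the PI3K step outside the 10 members were called. Pik3r2 was higher in females by 0.41 ± 0.07 and Pik3cd by 0.50 ± 0.12 log2 units, and Pdpk1, the kinase that activates AKT, was lower by -0.22 ± 0.06 (adjusted p = 0.00162, 0.0149 and 0.0303 by edgeR). These were, without PA females 4 and 5, 0.33, 0.52 and -0.17 (adjusted p = 0.00601, 0.0169 and 0.0843), so Pdpk1 was not called there, and Pik3cg was called higher (0.55, adjusted p = 0.00925).

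In the other lists on PA, edgeR called higher in females 1 of 8 ligand and IGF genes (Igfbp4), 1 of 9 adaptors (Shc1), 1 of 14 genes of the mTOR arm (Eif4ebp1), 1 of 13 of GLUT4 traffic and glycogen (Sort1) and 1 of 13 of the RAS and MAPK arm (Mapk3). Of 14 receptor-level inhibitors, Enpp1 was higher and Ptpn2 lower, and of 21 FOXO genes and targets Foxo6 was higher and Pdk4 and Ccng2 lower. With all libraries, Pdk4 was at -0.79 ± 0.17 and Foxo6 at 1.21 ± 0.23 log2 units. Their differences without PA females 4 and 5 are not given here. Foxo6 had a low level, averaging 2.32 ± 0.73 CPM in PA females and 1.01 ± 0.36 CPM in PA males. Of 8 lipid and AKT phosphatases 0 were called, and 3 had an unadjusted p under 0.05 by edgeR, against 29.75% of all genes tested. Eif4ebp1 and Enpp1 missed the threshold without PA females 4 and 5 (adjusted p = 0.2 and 0.0568). In that fit, where 10.4% of all genes were called, these lists also held genes lower in females. They were 1 of 8 phosphatases, 1 of 13 of GLUT4 traffic and glycogen, 2 of 14 receptor-level inhibitors and 4 of 21 FOXO genes and targets. Each list of this paragraph had 1 gene higher in females there, except the mTOR arm and the phosphatases with 0.

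On chow, where 3.23% of all genes were called, Pik3r2, Pik3cd and Pdpk1 were not called with all libraries (adjusted p = 0.104, 0.0597 and 0.277 by edgeR). Without PA females 4 and 5, where 10.5% of all genes were called, Pik3r2 and Pik3cd were called higher in females. Of the 14 receptor-level inhibitors, Grb10 was lower in females by -0.21 ± 0.05 (adjusted p = 0.0283), and of the 14 genes of the mTOR arm Tsc1 by -0.28 ± 0.06 (adjusted p = 0.0141). Of 13 genes of GLUT4 traffic and glycogen, Vamp2 was higher in females, and of 21 FOXO genes and targets Bcl2l11, Gadd45a and Txnip were higher. Without PA females 4 and 5, calls higher and lower in females were 2 and 1 of the inhibitors and 1 and 4 of the mTOR arm. They were 2 and 1 of GLUT4 traffic and glycogen and 6 and 0 of the FOXO genes and targets.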

How the data were processed

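RNA was extracted from hearts kept in RNAlater and sequenced on an Illumina NovaSeq after polyA selection, per the labels' protocols. The deposited files hold raw counts: the authors counted reads per exon piece in 19 libraries and per gene in the fourth chow male, and a read over several pieces appears in each of them. DESeq2 1.32.0, Salmon 1.5.1 and, as genome, GRCm39 are named in the submitters' processing notes, whereas 89.2% of genes have the same span as in the GENCODE vM21 annotation of GRCm38, so coordinates are given in GRCm38; aligner and counter are not given in the sources used here. Of 33309 pieces with joined gene IDs, 27968 overlapped exons of 1 gene and were given to it, and 5341 were not used (1.17 to 1.29% of counts). Pieces were summed per gene ID.

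edgeR 4.0.16 (R 4.3.3) was run on all genes of the 19 libraries with TMM scaling, its default filter on low counts and 1 model of 4 groups with 15 residual degrees of freedom. The quasi-likelihood F-test was used, with Benjamini-Hochberg adjustment over 18035 genes and calls at 0.05. CPM use TMM-scaled library sizes, except for the levels per kilobase, which use each library's total count without TMM scaling. Errors on log2 differences are standard errors from the fit. Shares of exon pieces were tested with diffSpliceDGE on pieces with at least 10 counts in at least 4 libraries. DESeq2 1.42.0 and the other alternatives are given in the closing section. The scripts were tested on simulated data. All 10 members are described in every comparison; of the pathway lists, up to 4 called genes per list and comparison with the smallest p were to be named, and a few uncalled ones were named after their values were seen. The members and lists were chosen with earlier results of these data known. Promoter windows are those of RefSeq on GRCm38.p6 and exon sequences those of GENCODE.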

Additional observations from a re-analysis of the deposited data

Results flagged for a closer look

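Akt1 stood at 301.5 CPM in chow female 3, apart from the other 4 chow females at 271.8 to 276.2 CPM. The gap to its nearest neighbour made up 0.852 of the group's range. It was the 1 library singled out among 40 sets of a gene and a group, and chance alone singles out about 1 set in 20. The Akt1 difference for diet in females was -0.02 without this library, against -0.04 with it.

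The library counted per gene, chow male 4, took part in no comparison. Its ratio of Irs2 to Irs1 counts was 2.681, with 1456 and 543 counts, against 0.368 to 1.03 in the other 4 chow males and 0.253 to 1.03 in all 19 libraries counted per piece. Both genes have 2 exon pieces. The part that the way of counting has in this was not tested.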

How the results depend on the processing

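The number of genes called moved with the tool, the libraries in the fit, the use of the largest piece and the removal of the filter. For diet in females, 457 genes were called, against 995 with DESeq2, 195 with no filter, 21 with the female libraries alone, 907 without PA females 4 and 5, 165 when each gene was represented by its largest piece, and 70 with chow male 4 joined. For diet in males 138 were called, against 256, 84, 571, 475, 44 and 84 under the same settings. For sex on chow 582 were called, against 899 with DESeq2, 351 with no filter, 1540 with the chow libraries alone, 1918 without PA females 4 and 5 and 240 with the largest piece. For sex on PA 1868 were called, against 1107 with no filter, 550 with the PA libraries alone, 1020 with the largest piece and 615 with chow male 4 joined. The difference of the diet effects had 0 genes, and 58 with DESeq2. With the GC offset the calls for diet in females were 133 higher and 391 lower, against 301 and 156, and for sex on PA 501 and 804, against 1155 and 713, while DESeq2 gave 1261 and 1183 for sex on PA. That offset moved the median of all genes only to -0.066 and -0.056.

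The Akt1 difference in males kept its direction in every setting run, from -0.39 to -0.25. By edgeR it was not called, leaving 0 members, with no filter (adjusted p = 0.0676), with the largest piece (adjusted p = 0.162) or with chow male 4 joined (adjusted p = 0.445). With the male libraries alone, or without PA females 4 and 5, 2 members were called for diet in males. On PA, 0 members differed by sex with the GC offset or with chow male 4 joined (Akt1 adjusted p = 0.0723) and 2 without PA females 4 and 5. The GC offset gave 1 member for diet in females, Akt2, and the chow libraries alone 1 for sex on chow, Pik3r1. Leaving out each library in turn gave 219 to 932 genes for diet in females, 42 to 198 in males, 0 to 5 for the difference of the diet effects, 261 to 859 for sex on chow and 1094 to 3535 for sex on PA. Members called then ran from 0 to 1 for diet in males and from 1 to 5 for sex on PA, the 5 without PA female 1. No exon piece of a member was called without PA females 4 and 5 or without any 1 library.

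Signs turned for members that were not called in the fit of all libraries. Without PA females 4 and 5, diet in females became 0.041 for Pik3r1, 0.047 for Pik3ca, -0.14 for Akt2 and -0.041 for Foxo3, the difference of the diet effects 0.010 for Pik3r1, -0.048 for Akt2 and -0.10 for Foxo3, and sex on PA -0.039 for Foxo1. With the GC offset, diet in females became -0.14 for Akt2 and -0.033 for Foxo3, the difference of the diet effects -0.071 and -0.12, and sex on PA -0.0061 for Akt2, -0.0074 for Foxo3 and -0.023 for Foxo1. With the largest piece, diet in females became -0.015 for Akt2 and -0.054 for Tbc1d4, diet in males -0.42 for Insr, -0.039 for Irs2 and 0.062 for Akt2, the difference of the diet effects 0.14 for Irs1 and -0.077 for Akt2, and sex on chow -0.60 for Insr and 0.026 for Pik3ca. With chow male 4 joined, diet in males became -0.030 for Insr, 0.010 for Irs1, -0.57 for Irs2, -0.0044 for Pik3r1, 0.0062 for Akt2, -0.028 for Foxo1 and -0.10 for Foxo3, the difference of the diet effects 0.39 for Irs2 and 0.19 for Foxo1, and sex on chow -0.059 for Insr, -0.16 for Foxo1 and -0.042 for Foxo3. Insr by sex on chow was -0.0035 with DESeq2 and -0.0035 with median-ratio factors. Leaving out 1 library gave ranges across 0 for diet in females in Akt1 (-0.080 to 0.0015) and Akt2 (-0.068 to 0.055), for diet in males in Insr (-0.013 to 0.096), Irs1 (-0.089 to 0.012), Irs2 (-0.22 to 0.51) and Pik3r1 (-0.033 to 0.061), for the difference of the diet effects in Irs2 (-0.69 to 0.040), Foxo1 (-0.089 to 0.0034) and Foxo3 (-0.049 to 0.086), for sex on chow in Insr (-0.066 to 0.063), Irs2 (-0.31 to 0.33), Akt1 (-0.024 to 0.068) and Tbc1d4 (-0.0062 to 0.080), and for sex on PA in Foxo1 (-0.016 to 0.065). The cause of these turns was not tested.

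The replicate numbers did not pair the samples: same-numbered libraries correlated by -0.066 to 0.161 in their deviations from the group means. With the replicate number as a block, 85 genes were called for diet in males and 340 in females, and the members called were the same in number. Irs1, Irs2 and Foxo1, with the lowest levels, have the least depth behind their values, and the 36-base and 24-base exons received 10 to 38 and 0 to 16 counts per library, which limits the precision of their shares.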
